A study of Mus musculus with 40 samples.

Results

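Fatty acid synthesis and desaturation were described through 10 genes, Acss2, Acly, Acaca, Fasn, Elovl6, Scd1, Scd2, Fads1, Fads2 and Srebf1, which were taken by name and are 10 of the 18193 genes measured. Their mRNA was read on 40 Affymetrix mouse arrays, 1 array a sample, from a mouse model of glioblastoma in which a Cre recombinase under the human GFAP promoter (hGFAP-cre), active in neural cells, alters p53. The control group held 5 normal dorsal cortices. Of these, 3 (arrays 30 to 32) were from hGFAP-cre+;p53floxE2-10/+ mice, which carry Cre and 1 floxed allele, and 2 (arrays 33 and 34) from hGFAP-cre-;p53floxE5-6/floxE5-6 mice without Cre. The p53nullCKO group held 11 malignant gliomas of hGFAP-cre+;p53floxE2-10/floxE2-10 mice, which lose the p53 coding region in Cre-positive cells. The p53R172HCKO group held 11 malignant gliomas of hGFAP-cre+;p53LSLR172H/floxE2-10 mice, which keep 1 allele with the missense mutation R172H. A further 11 arrays were of early passage cell lines grown from p53R172HCKO end-stage tumors and 2 (arrays 66 and 69) of lines from early-stage p53R172HCKO biopsies. Per the study, every p53R172HCKO tumor has a line derived from it, and histology noted normal tissue in a single p53R172HCKO tumor. The labels give no age, and they say neither which line came from which tumor nor which array holds the tumor with normal tissue, so tumors and lines were compared as unpaired groups and no tumor was left out of the main comparisons.

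Cells build saturated fatty acids in the cytosol from acetyl-CoA. Acly makes acetyl-CoA from citrate and Acss2 makes it from acetate, Acaca carboxylates it to malonyl-CoA, and Fasn joins these units into palmitate, which Elovl6 lengthens. Scd1 and Scd2 put the first double bond into saturated chains, Fads1 and Fads2 put further double bonds into polyunsaturated chains, and Srebf1 encodes a membrane-bound transcription factor that switches on this program. Brain uses the products for membranes and, in oligodendrocytes, for myelin, and cells raise the program when sterols are scarce.

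Each value is a log2 signal, so a difference of 1 is a doubling of signal, and a gene passed the test at a Benjamini-Hochberg adjusted p under 0.05 from limma, adjusted over all 18193 genes. The signal of a probe set cannot be compared with that of another gene's. Array medians lay between 5.24 and 5.47. The correlation of arrays within a group was 0.978 to 0.992 among cortices, 0.894 to 0.981 among p53nullCKO gliomas, 0.853 to 0.974 among p53R172HCKO gliomas, 0.936 to 0.975 among end-stage lines and 0.973 between the 2 early lines. The cortices held neuron markers (all 10 above the array median), and gliomas had microglia and oligodendrocyte progenitor markers above the array median, while in the lines all 10 microglia and macrophage markers and all 8 endothelial markers had mean signals below it. The neuron marker score of a glioma, the median difference of its markers from the cortex mean, ranged from -7.65 to 0.14, with arrays 38, 45 and 58 near the cortices. In such bulk samples, fewer cells of a type and less RNA per cell cannot be told apart. The targeted gene p53 was not analysed here.

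In tumors, no member rose against cortex and 3 of 10 fell: Acss2, Scd2 and Fads1. Over all genes, 22.6% were called higher and 24.7% lower in that comparison, so 3 of 10 lower is near the background. Between the tumor genotypes no member passed in limma, in a comparison where 0% of all genes were called higher and 0.033% lower. At an unadjusted p under 0.05, 1 member (Acly) and 2024 of all genes differed there, and the methods' t-test likewise had 1 member unadjusted and 0 after Benjamini-Hochberg adjustment. Cell lines differed from the p53R172HCKO tumors in 6 members, all higher (Acss2, Fads1, Scd2, Fads2, Elovl6 and Scd1), against 7.24% of all genes called higher and 6.43% called lower. Against cortex, 7 members were higher in the lines and none lower, where 25.5% of all genes were called higher and 24.3% lower. In early biopsy lines against end-stage lines no member passed, and the share of all genes called was 0% in either direction.

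The median log2 fold change of the 10 members was -0.01 in gliomas against cortex (all genes -0.03), 0.75 in lines against p53R172HCKO gliomas (all genes 0.05) and 0.65 in lines against cortex (all genes 0.02). All members have bright probe sets. Over the 6555 genes with a mean signal of at least 8, the median was 0.23, 0.07 and 0.34 in the same order. Of these bright genes, 38.4% were called higher and 21.6% lower in gliomas against cortex, where no member was called higher. In lines, 8.97% of them were called higher against p53R172HCKO gliomas and 43.2% against cortex. The comparisons share arrays: the cortices enter both comparisons with cortex, and the end-stage lines enter 3 of the 5. The p53R172HCKO gliomas also enter 3 of the 5. Low values in them lower gliomas against cortex and raise lines against gliomas, so a fall and a rise of the same gene are not independent.

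**Figure D1:**
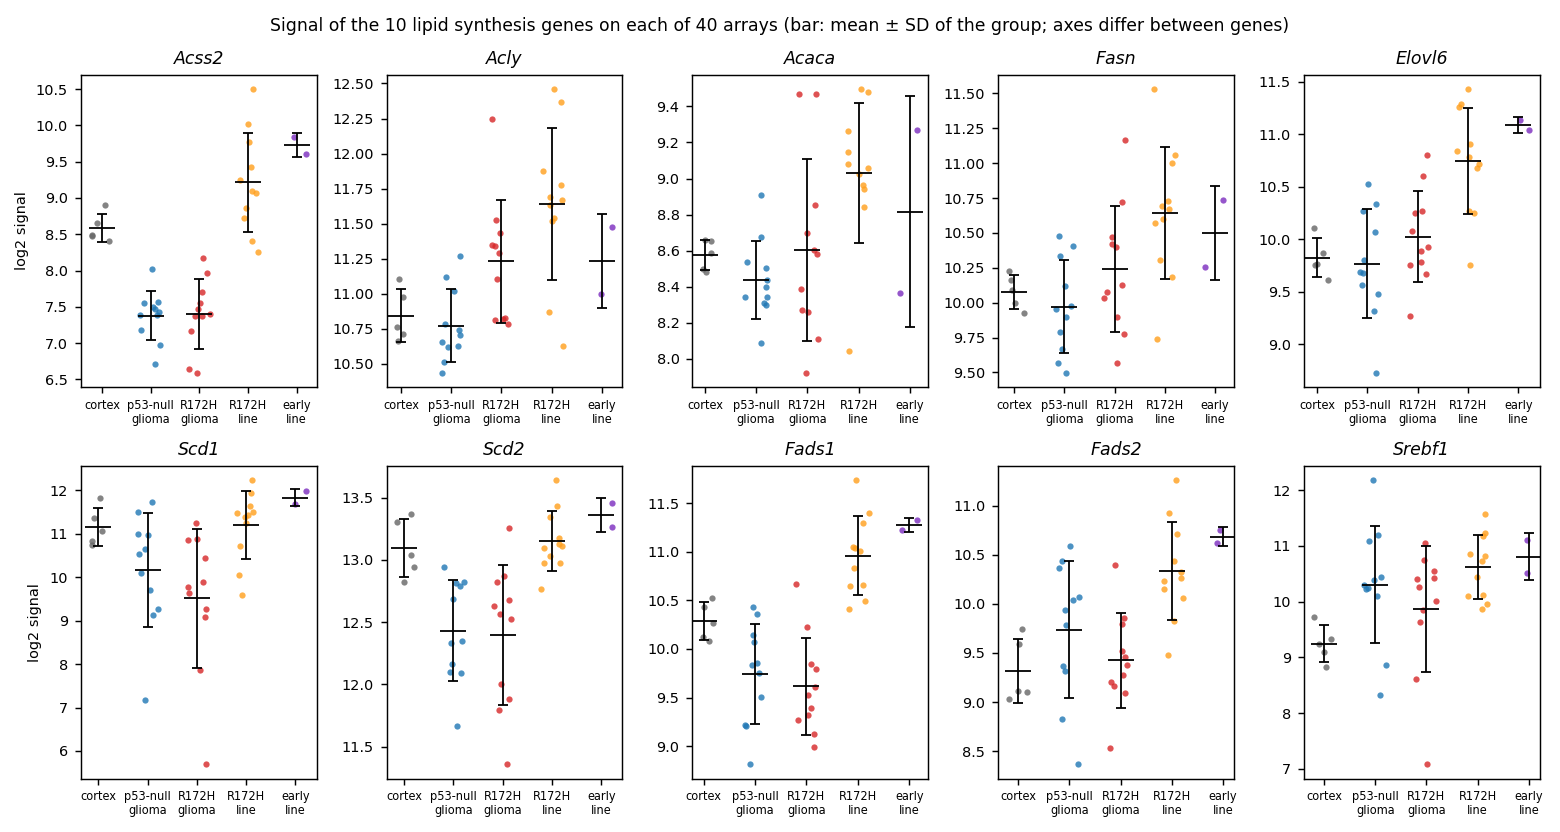
Log2 signal of each of the 10 genes on every array (points), in 5 groups; black bars give each group's mean and SD, and vertical axes differ between genes. Acss2 of all 22 gliomas lies below the cortices, and Scd1 and Srebf1 have the widest spread among gliomas, down to 5.69 and 7.08.

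**Figure D2:**
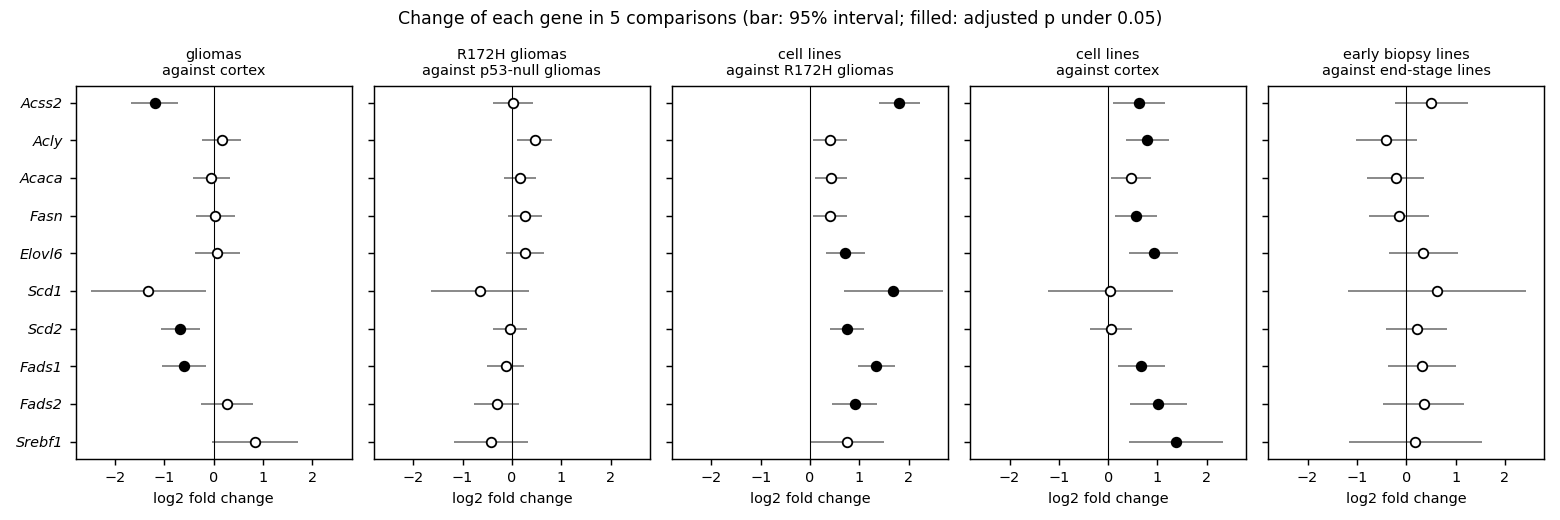
Log2 fold change (horizontal axis) of each gene in the 5 comparisons with its 95% interval from the limma fit; filled points have an adjusted p under 0.05. Filled points lie left of 0 for Acss2, Scd2 and Fads1 in gliomas against cortex and right of 0 for 6 genes in lines against gliomas and 7 in lines against cortex.

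Acss2, the acetate-using enzyme, fell in tumors and rose in lines. Its log2 signal in the cortices was 8.90, 8.65, 8.49, 8.48 and 8.41 on arrays 30 to 34. In the 22 gliomas it ran from 6.59 over a median of 7.42 to 8.18, so every tumor was below every cortex. In the end-stage lines it ran from 8.26 over a median of 9.09 to 10.51, every line above every p53R172HCKO tumor, and the early lines were at 9.61 and 9.84. Gliomas thus had 0.436 times the cortex signal (log2 fold change -1.20, standard error 0.24, adjusted p = 7.61e-05), and lines had 3.52 times the signal of p53R172HCKO tumors (1.81, standard error 0.20, adjusted p = 2.21e-08). Lines were also above cortex, by 0.63 (standard error 0.26, adjusted p = 0.0416), but 2 of 11 lines were below the lowest cortex. Of the 16 fits without 1 array (log2 fold change 0.50 to 0.72), 8 lost this call, with array 31, 32, 33, 34, 51, 59, 61 or 65 left out. A second bright probe set, 1422478_a_at, gave -1.25, 1.97 and 0.84 in these comparisons, all past the test. The probe set 1446542_at, with a mean of 3.85, is dim and showed 0.05 in gliomas against cortex.

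Acly, the citrate-using enzyme, overlapped between tumors and cortex and rose in lines against cortex. The cortices were at 10.98, 10.76, 10.71, 10.66 and 11.11, and the gliomas ran from 10.44 over 10.82 to 12.24 and overlapped them on both sides. The log2 fold change in gliomas was 0.16 (95% interval -0.25 to 0.56, adjusted p = 0.542) and -0.16 after cyclic loess normalization. End-stage lines ran from 10.63 over 11.67 to 12.46, with 9 of 11 above the highest cortex, and rose by 0.79 against cortex (standard error 0.22, adjusted p = 0.00226) while the difference from p53R172HCKO tumors was 0.41 (adjusted p = 0.108). Tumors by genotype ran from 10.44 over 10.71 to 11.27 in p53nullCKO and from 10.78 over 11.29 to 12.24 in p53R172HCKO. Here 6 of 11 p53R172HCKO tumors were above the highest p53nullCKO tumor, and the difference of 0.46 (95% interval 0.11 to 0.80) had the lowest unadjusted p of any member between genotypes (0.011) but an adjusted p of 0.27. A second bright probe set, 1439459_x_at, gave 0.58 (adjusted p = 0.106) for the same difference.

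The promoters of Acss2, Acly and Fasn are shown for 2 reasons. Acss2 separated gliomas from cortices and lines from p53R172HCKO gliomas, and Acly and Fasn varied together from array to array. Each window runs from 250 bases before to 50 bases after a RefSeq transcript start (GRCm38.p6), and capitals mark CCAAT on either strand.
Acss2, chr2:155517793-155518092, plus strand: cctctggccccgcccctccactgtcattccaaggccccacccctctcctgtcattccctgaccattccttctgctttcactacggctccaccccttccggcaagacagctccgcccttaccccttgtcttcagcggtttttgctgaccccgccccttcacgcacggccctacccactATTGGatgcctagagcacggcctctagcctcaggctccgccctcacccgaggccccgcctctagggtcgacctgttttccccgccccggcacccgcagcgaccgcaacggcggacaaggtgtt
Acly, chr11:100527951-100528250, minus strand: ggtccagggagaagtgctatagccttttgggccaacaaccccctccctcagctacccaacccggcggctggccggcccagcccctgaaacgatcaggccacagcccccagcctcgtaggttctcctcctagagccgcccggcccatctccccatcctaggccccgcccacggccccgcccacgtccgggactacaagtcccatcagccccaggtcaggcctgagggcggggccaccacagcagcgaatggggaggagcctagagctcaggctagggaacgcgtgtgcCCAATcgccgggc
Fasn, chr11:120824498-120824797, minus strand: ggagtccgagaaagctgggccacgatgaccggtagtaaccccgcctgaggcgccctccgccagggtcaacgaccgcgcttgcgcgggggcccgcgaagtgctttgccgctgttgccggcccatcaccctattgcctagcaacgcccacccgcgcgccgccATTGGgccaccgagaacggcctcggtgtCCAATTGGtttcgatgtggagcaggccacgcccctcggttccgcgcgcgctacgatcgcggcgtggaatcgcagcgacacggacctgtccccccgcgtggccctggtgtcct

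The RefSeq table held windows of 7 members, with 3 starts for Srebf1, and none for Scd1, Scd2 and Fads1. Neither the sterol regulatory element core TCACNCCAC nor the E-box CACGTG, searched on both strands, was found in any of the 9 windows. These letters occur in 1.24% and 7.15% of all 32851 windows, so their absence from 9 windows says little. The windows of Acaca, Fasn and Srebf1 lie inside the span of the gene, so its outer start was not searched there. CCAAT, where the factor NF-Y binds, occurred 3 times in the Fasn window, the 2 nearest the start overlapping each other, and 1 time each in the Acss2 and Acly windows and in 2 of the Srebf1 windows, and in 37.4% of all windows. The GC box GGGCGG, the motif of Sp1, was found 5 times in the Acss2 and 4 times in the Acly window and not in the Fasn window, against 35.7% of windows with at least 1. A match in letters is no measure of binding.

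Acaca and Fasn carry out the committed step of synthesis and the building of the chain, and neither passed the test between tumors and cortex. Acaca was 8.65, 8.66, 8.48, 8.59 and 8.50 in the cortices, and ran from 7.92 over 8.42 to 9.47 in gliomas and from 8.04 over 9.06 to 9.50 in end-stage lines. The gliomas lay on both sides of the cortices, 6 of 22 above the highest and 12 below the lowest, with a log2 fold change of -0.05 (95% interval -0.43 to 0.32). In lines, 10 of 11 were above the highest cortex, yet neither the difference from cortex (0.46, adjusted p = 0.0574) nor that from p53R172HCKO tumors (0.43, adjusted p = 0.0655) passed.

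Fasn was 10.16, 10.09, 9.92, 10.00 and 10.23 in the cortices, with gliomas from 9.50 over 10.06 to 11.16 and lines from 9.74 over 10.67 to 11.53. Equal numbers of gliomas, 8 of 22 each, were above the highest and below the lowest cortex, and the difference was 0.03 (95% interval -0.37 to 0.42), or -0.25 after cyclic loess normalization. Fasn rose in lines against cortex by 0.56 (standard error 0.21, adjusted p = 0.0262), a call lost without cortex 32 or 33 (log2 fold change 0.48 to 0.66 without any 1 array), and its difference from p53R172HCKO tumors was 0.40 (adjusted p = 0.108). Line 68 was the lowest of the lines in Acly, Acaca and Fasn, and without it all 3 passed against p53R172HCKO tumors, at 0.51, 0.53 and 0.49 (adjusted p = 0.0315, 0.0148 and 0.0385).

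Elovl6, which lengthens palmitate, rose in lines against both tumors and cortex. Its cortex signals were 10.11, 9.76, 9.77, 9.61 and 9.87, its glioma signals ran from 8.73 over 9.84 to 10.81 and its line signals from 9.75 over 10.78 to 11.43. Only 1 line lay within the cortex range, and both early lines, at 11.04 and 11.14, were above it. The gene rose in lines by 0.72 against p53R172HCKO tumors (standard error 0.19, adjusted p = 0.00959) and by 0.92 against cortex (standard error 0.24, adjusted p = 0.00164), while the difference between gliomas and cortex was 0.07 (95% interval -0.38 to 0.52), or -0.20 after cyclic loess normalization. Against p53R172HCKO tumors, probe set 1417403_at gave 0.83 in lines (adjusted p = 0.00264). The dim 1442656_at, with a mean of 4.89, gave 0.56 and did not pass (adjusted p = 0.139). In gliomas against cortex these probe sets gave -0.03 and 0.68 (adjusted p = 0.938 and 0.0506), and in lines against cortex both passed, at 0.89 and 1.33.

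Scd1 and Scd2 encode delta-9 desaturases, of which Scd2 is the main form in brain. Scd1 was 11.37, 10.73, 11.06, 10.83 and 11.82 in the cortices. In gliomas it ran from 5.69 over 10.00 to 11.73, with 15 of 22 below the lowest cortex and none above the highest, and in lines from 9.58 over 11.44 to 12.24. The spread among tumors was the widest of the 10 members, with an SD of 1.31 in p53nullCKO and 1.59 in p53R172HCKO gliomas (n = 11 each) against 0.44 in cortex and 0.79 in lines. Glioma 50 at 5.69, glioma 41 at 7.17 and glioma 64 at 7.87 stood below all others, the next being 9.07. The log2 fold change of gliomas against cortex was -1.32 (95% interval -2.49 to -0.16) with an adjusted p of 0.0558. Without glioma 50 it was -1.13 and passed (adjusted p = 0.0498), as it did without glioma 42, 43, 48, 58 or 67. Lines had 3.22 times the signal of p53R172HCKO tumors (1.69, standard error 0.49, adjusted p = 0.0184), and 1.31 more on the log2 scale without glioma 50 (adjusted p = 0.0321), and did not differ detectably from cortex (0.04, 95% interval -1.23 to 1.31). The second probe set of Scd1, 1415965_at, with a mean of 6.22 against 10.48, differed from the brighter one in lines. It rose by 1.74 against cortex (adjusted p = 0.00291) and by 2.03 against tumors, and it was -0.37 in gliomas against cortex (adjusted p = 0.52).

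Scd2 was at 13.31, 12.94, 13.04, 12.82 and 13.37 in cortex, and 18 of 22 gliomas were below the lowest cortex. Glioma signals ran from 11.36 over 12.54 to 13.26 and line signals from 12.76 over 13.12 to 13.64. The gene fell by 0.68 in gliomas (standard error 0.20, adjusted p = 0.00442), to 0.624 times the cortex signal, and was higher by 0.75 in lines than in p53R172HCKO tumors (standard error 0.17, adjusted p = 0.00206), and lines and cortex differed by 0.06 (95% interval -0.38 to 0.49). The other probe sets, 1415823_at and 1415824_at, gave larger changes at dimmer signals, -0.99 and -1.56 in gliomas against cortex and 1.42 and 1.53 in lines against tumors, and all passed. Whether probes of Scd1 and Scd2 cross-hybridise was not tested.

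Fads1 and Fads2, neighbours on chromosome 19 that encode the delta-5 and delta-6 desaturases, both rose in lines, and of the pair Fads1 fell in gliomas against cortex; the difference between their changes was not tested. The cortex signals of Fads1 were 10.44, 10.08, 10.26, 10.12 and 10.53, with gliomas from 8.81 over 9.68 to 10.67 and lines from 10.41 over 11.01 to 11.74. It fell by 0.61 in gliomas (standard error 0.22, adjusted p = 0.0202), 17 of 22 being below the lowest cortex, a call lost without cortex 30 or 34 (log2 fold change -0.66 to -0.55 without any 1 array), and it was 2.54 times as high in lines as in tumors (1.35, standard error 0.19, adjusted p = 1.73e-06). The dim second probe set, 1440444_at, gave 0.35 in gliomas against cortex (adjusted p = 0.323) and rose in lines against tumors by 0.77 (adjusted p = 0.0312).

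Fads2 was 9.59, 9.11, 9.10, 9.03 and 9.75 in cortex, and gliomas ran from 8.36 over 9.49 to 10.59 on both sides of it (0.26, 95% interval -0.27 to 0.79). In lines it ran from 9.48 over 10.26 to 11.26, 10 of 11 above every cortex, and the gene rose by 0.91 against tumors (standard error 0.23, adjusted p = 0.00503) and by 1.02 against cortex (standard error 0.28, adjusted p = 0.00291). Fads1 likewise was above cortex in lines, by 0.67 (standard error 0.24, adjusted p = 0.0164).

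Srebf1, the regulator of the program, was higher in lines than in cortex, and higher than every cortex in most tumors. It was 9.34, 8.82, 9.10, 9.25 and 9.73 in the cortices, and ran from 7.08 over 10.28 to 12.18 in gliomas, where 17 of 22 were above the highest cortex and gliomas 45, 50 and 54 below the lowest. The mean difference of 0.84 did not pass (95% interval -0.03 to 1.71, adjusted p = 0.106). Of 27 fits without 1 array it passed in 1, without glioma 50, at 0.98 (adjusted p = 0.0246). It also passed without gliomas 38, 45 and 58, which had neuron markers near cortex level, at 1.03 (adjusted p = 0.0272). The fit without gliomas 36, 41 and 50 (0.89, adjusted p = 0.0283) and that with array weights (1.12, adjusted p = 0.00013) passed as well. After cyclic loess normalization the difference was 0.57 (adjusted p = 0.28) and with chromosome medians taken off 0.90 (adjusted p = 0.0828), and neither passed. Lines ran from 9.87 over 10.73 to 11.57, all 11 above every cortex, and rose by 1.38 (standard error 0.47, adjusted p = 0.0137), to 2.59 times the cortex signal, but their difference from p53R172HCKO tumors (0.75, 95% interval -0.0019 to 1.497) did not pass and was 0.47 without glioma 50 (adjusted p = 0.335). The array measured Srebf1 with 1 probe set for all transcripts, so the SREBP-1a and SREBP-1c forms were not told apart.

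For lines against cortex the member count depended on the arrays and the scaling. With only the 3 Cre-positive cortices 4 members passed (Acly, Elovl6, Fads2 and Srebf1), where 20.9% of all genes were called higher. After a cyclic loess normalization of the deposited values only Elovl6 passed, at 0.54 (adjusted p = 0.0476). That share of the members is below the 23.4% of all genes called higher under the same setting. The other 6 were then at 0.99 for Srebf1, 0.65 for Fads2, 0.39 for Acly, 0.37 for Acss2, 0.29 for Fads1 and 0.18 for Fasn (adjusted p from 0.0556 for Fads2 to 0.499 for Fasn). Lines against p53R172HCKO tumors kept the same 6 members after cyclic loess, with a member median of 0.69, where 5.14% of all genes were called higher.

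Between the tumor genotypes, the differences of the members ranged from -0.65 for Scd1 (95% interval -1.65 to 0.35) to 0.46 for Acly. Without glioma 50 the Scd1 difference was -0.27, and that of Srebf1 was -0.15 in place of -0.43 (-0.24 without glioma 41). Between early and end-stage lines they ranged from -0.41 for Acly (95% interval -1.03 to 0.22) to 0.63 for Scd1 (95% interval -1.17 to 2.44), with Acly at -0.64 without array 66 and -0.17 without array 69, and both early lines lay within the range of the end-stage lines for every member. On arrays 66 and 69, Acly was 11.47 and 10.995, Acaca 9.27 and 8.36 and Fasn 10.73 and 10.26, so that array 69 was the lower of the pair in all 3. The desaturases were closer, with Scd1 at 11.69 and 11.97, Scd2 at 13.46 and 13.26, Fads1 at 11.23 and 11.33 and Fads2 at 10.75 and 10.62, and Srebf1 was 11.10 and 10.51. With 2 early lines these intervals are wide. On its brightest probe set, no member had an unadjusted p under 0.05 in this comparison, where 515 of all genes did. Another bright probe set of Fads2, 1449325_at, gave 0.83 (unadjusted p = 0.0488 from limma), which did not pass after adjustment.

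Within groups, the correlation between members ran from negative to high. After each array's value was set against its group mean, the 45 pairs of members had correlations from -0.38 to 0.79 over 40 arrays, with a median of 0.07. Acaca and Fasn had the highest (0.79), Acly had 0.68 with Acaca and 0.62 with Fasn, and Scd1 and Scd2 had 0.74, Scd2 and Fads1 0.69, Scd2 and Fads2 0.65, Fads1 and Fads2 0.61, Scd1 and Fads1 0.59 and Scd1 and Fads2 0.42. Acss2 had 0.54 with Fads1 and 0.41 with Scd2, and Elovl6 had 0.40 with Fasn and 0.35 with Acly. The values between Acly, Acaca and Fasn on one side and the 4 desaturases on the other were near or below 0, with -0.38 for Acaca and Scd1 and -0.37 for Acly and Fads1. Srebf1 had 0.43 with Scd2, 0.40 with Fads2 and -0.17 with Acaca. These values describe the arrays and carry no test. Glioma 50, far below its group in Scd1 (5.69) and high in Acaca (9.47) and Fasn (11.16), is among the 40 arrays. No pair was computed without it.

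**Figure D3:**
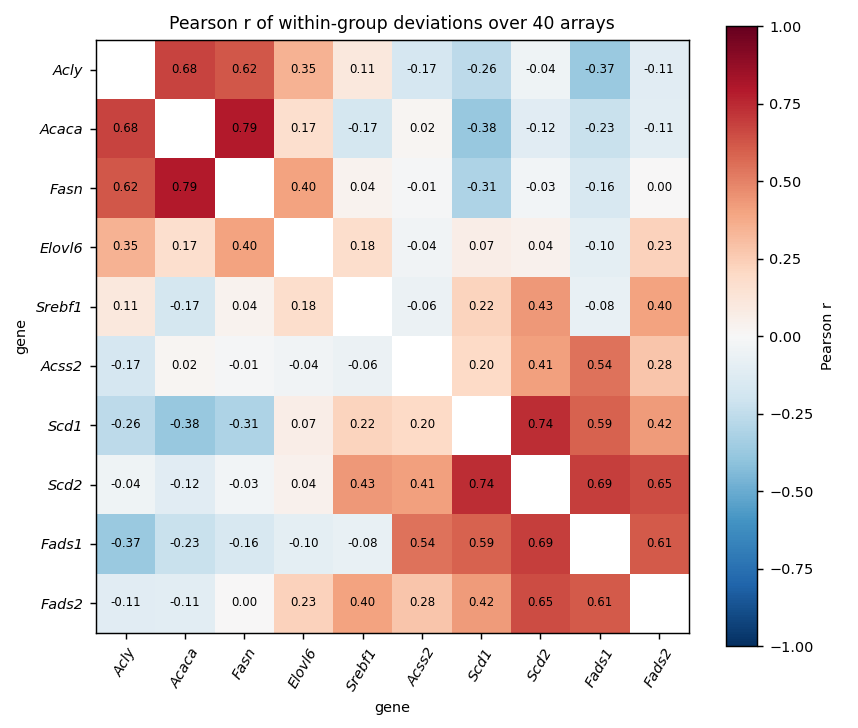
Pearson r (colour and number) of each pair of the 10 genes over 40 arrays, after the group mean was taken from each value. Acly, Acaca and Fasn have 0.62 to 0.79 among themselves, Scd1, Scd2, Fads1 and Fads2 have 0.42 to 0.74, and values between these 3 and 4 genes lie near or below 0.

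Acly, Acaca and Fasn lie on chromosome 11, as does Srebf1, whose r with these 3 was 0.11, -0.17 and 0.04, and Scd1, Scd2, Fads1 and Fads2 on chromosome 19 while Acss2 is on chromosome 2 and Elovl6 on chromosome 3. The within-group deviation of Acly and of Acaca had r = 0.65 and 0.64 with the median of the 40 nearest bright genes on the chromosome, that of Fasn 0.31 and that of Srebf1 0.18. For Scd1, Scd2, Fads1 and Fads2 this r was 0.04, 0.04, 0.26 and 0.07. Over the other 605 genes of chromosome 19, the median log2 fold change of gliomas against cortex was -0.12, with 11.7% called higher and 32.7% lower. When the chromosome median of each array was taken off, Scd2 still passed, at -0.52 (adjusted p = 0.0269), and Fads1 did not, at -0.45 (adjusted p = 0.0748). In lines against p53R172HCKO tumors the chromosome 19 median was 0.08 and the same 6 members passed after that step.

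The gene nearest to the mean of the 10 members by this measure was Slc6a9, a glycine transporter, with r = 0.70, followed by Sdc3 (0.68) and Fads6 (0.68). Dnajc7 was nearest to both Acly (0.75) and Acaca (0.79), and it lies on chromosome 11 too. For the others the nearest genes were Mylk for Acss2 (0.61), Acaca for Fasn (0.79), Fam184b for Elovl6 (0.69), Dynlt3 for Scd1 (0.78), Slc38a3 for Scd2 (0.79), Desi1 for Fads1 (0.71), Slc6a9 for Fads2 (0.77) and Smpd2 for Srebf1 (0.77). All are over 40 arrays, and a correlation says nothing of shared control.

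**Figure D4:**
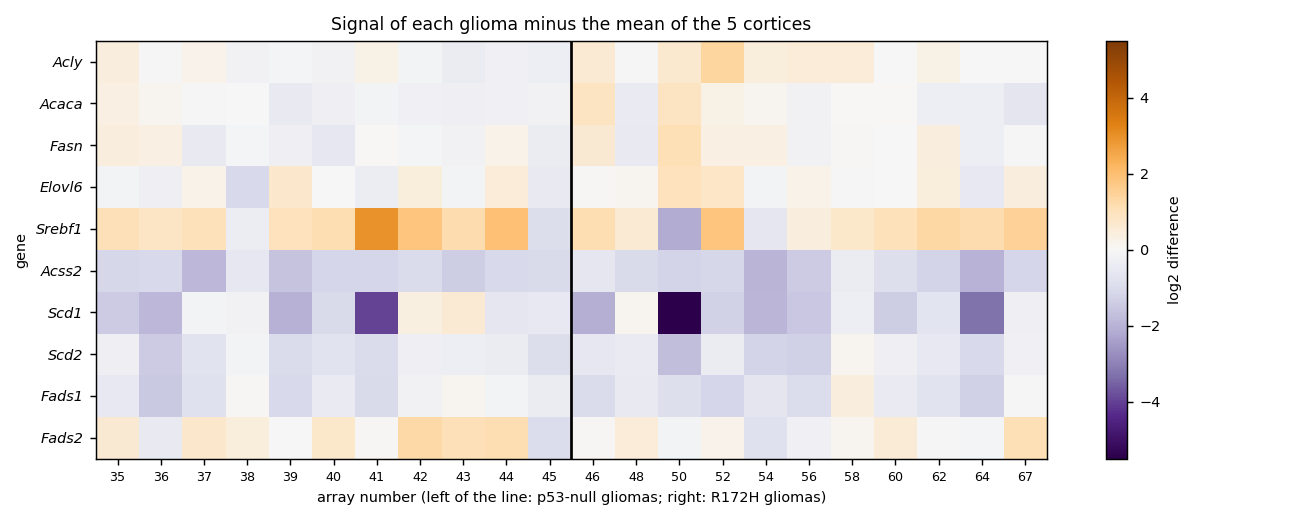
Difference of each glioma (columns, by array number) from the mean of the 5 cortices, in log2 units (colour), for each gene (rows). Acss2 is below 0 in all 22 gliomas, Srebf1 above 0 in most, and gliomas 41, 50 and 64 have Scd1 far below the rest.

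Single tumors stood apart from their group. Glioma 50 had the lowest Scd1 (5.69), Scd2 (11.36) and Srebf1 (7.08) of all tumors and, on the same array, the highest Fasn (11.16) and Elovl6 (10.81) and an Acaca of 9.47, level with the highest. Its oligodendrocyte progenitor score was -2.22, where the median of p53R172HCKO gliomas was 3.03. Glioma 41 had the highest Srebf1 of all 40 arrays (12.18) beside a Scd1 of 7.17. Glioma 58, whose neuron markers were level with cortex (score 0.14), had the highest Acss2 (8.18), Scd2 (13.26) and Fads1 (10.67) of the tumors. The part of these marker levels in the values was not tested.

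The members were set against marker scores, the chromosome 19 median and Srebf1 over 22 gliomas or 11 lines, in 46 relations in all. None had an adjusted p under 0.05 by permutation. In gliomas, the highest Pearson r in size was with the mature oligodendrocyte score, positive for Scd1 (r = 0.60, Spearman's rho 0.60, permutation p = 0.00306 and 0.0036, adjusted p = 0.0768 and 0.0662) and negative for Acly (r = -0.59, rho -0.58, permutation p = 0.00334 and 0.00576, adjusted p = 0.0768 and 0.0662). By Spearman's rho, Srebf1 with the neuron score was the largest in size (rho -0.61, r = -0.51, permutation p = 0.00324 and 0.0143, adjusted p = 0.0662 and 0.118), with r = -0.48 without the 2 farthest gliomas, and Fads2 with Srebf1 had rho 0.58 (r = 0.51, permutation p = 0.00529 and 0.0149, adjusted p = 0.0662 and 0.118), with r = 0.40 without the 2 gliomas farthest in Srebf1. For Scd1 and Acly, without the 2 gliomas farthest from the median score r was 0.51 and -0.52, and within genotypes it was 0.68 in p53nullCKO and 0.51 in p53R172HCKO gliomas for Scd1. That score ranged from -4.97 to -0.37 in gliomas, below 0 throughout, and from -5.13 to -3.68 in end-stage lines. Fasn, a known target of SREBP-1, had r = -0.22 with Srebf1 in the gliomas (rho 0.13, permutation p = 0.326 and 0.563, adjusted p = 0.596 and 0.803), with 0.32 in p53nullCKO and -0.50 in p53R172HCKO gliomas and 0.09 without the 2 gliomas farthest from the median of Srebf1. In the 11 end-stage lines the same pair had r = 0.61 (rho 0.47, permutation p = 0.0439 and 0.146, adjusted p = 0.212 and 0.419), and 0.30 without the 2 farthest lines.

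Other genes of lipid metabolism were described from fixed lists, on the deposited scaling. All 3 further desaturases measured fell in gliomas against cortex, where 24.7% of all genes were called lower. Their log2 fold changes were -2.50 for Fads6, -2.18 for Scd3 and -1.29 for Fads3. All 3 were lower in lines than in cortex too (Fads6 -4.21, Scd3 -2.42, Fads3 -1.47), where 24.3% of all genes were called lower. Of 5 acyl-CoA synthetases, which activate fatty acids, 3 fell in gliomas against 24.7% of all genes, among them Acsl6 (-2.11) and Acsl3 (-1.004), and Acsl3 rose in lines against tumors by 1.10. In the elongation cycle 3 of 12 genes rose in gliomas, near the 22.6% of all genes called higher, led by the dehydratase Hacd1 at 2.20 and the elongase Elovl1 at 0.88, and 3 fell, near the 24.7% called lower, led by the reductase Tecr (-0.79) and Elovl4 (-0.77). In lines against tumors, where 7.24% of all genes were called higher and 6.43% lower, 3 rose, led by Elovl5 at 0.78 and Hacd2 at 0.70, and Hacd4 fell (-1.71).

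Srebf2, the SREBP that drives cholesterol synthesis, rose by 1.34 in lines against p53R172HCKO tumors and Insig1, a target of SREBP that holds it in the membrane, by 1.35. These 2 of 9 regulators passed there, where 7.24% of all genes were called higher. Of 14 genes of cholesterol synthesis and uptake measured, 13 rose in lines against tumors (median 1.24), led by Fdps at 1.66 and Lss at 1.64, and 12 against cortex (median 1.27), with 7.24% and 25.5% of all genes called higher in the same order, while in gliomas against cortex 1 rose and 1 fell (median 0.04). Of 14 fatty acid oxidation genes, 8 rose in lines against tumors (median 0.60), led by Acaa2 at 1.04 and Hadh at 0.93, and none fell, against 7.24% of all genes called higher and 6.43% lower. From the list of acetyl and malonyl supply, Slc25a1, the mitochondrial citrate carrier that feeds Acly, rose by 0.75. Acacb of the same list, the acetyl-CoA carboxylase of the mitochondrial surface, fell (-0.86), against the same 7.24% and 6.43%. These genes were named for the size of their change and do not describe their list. In glycerolipid synthesis 2 of 8 rose, against the same 7.24%, Lpin1 at 1.13 and Agpat3 at 0.51. Microglia and endothelial markers were lost in the same comparison, with mean array signals of the 10 microglia markers at 3.98 to 4.90 in end-stage lines and 8.56 to 10.98 in p53R172HCKO gliomas, and the part of these markers in the changes above was not tested.

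**Figure D5:**
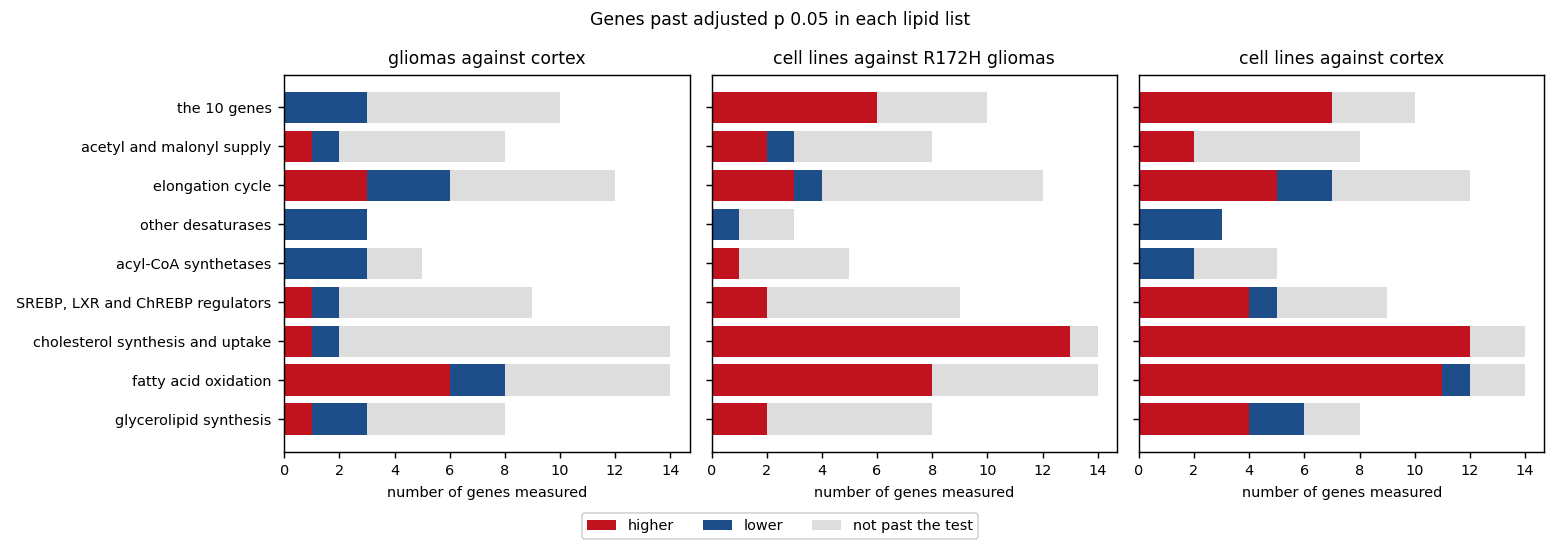
Number of measured genes of each lipid list (horizontal axis) that were higher, lower or not past the test in 3 comparisons. In lines against p53R172HCKO gliomas 13 of 14 cholesterol genes and 6 of the 10 members are higher, and in gliomas against cortex all 3 other desaturases are lower.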

How the data were processed

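RNA of 40 samples was hybridised to Affymetrix Mouse430_2 arrays. Per the study's methods, the authors background-corrected, quantile-normalized and summarized the probes by robust multi-array average, and deposited 1 value per probe set, here read as log2 signals from their range (2.00 to 14.47), since the log base, software version and genome build are not given in the sources used here. Of 45101 probe sets, 64 controls were left out, 34945 had 1 gene symbol (34741 matched to RefSeq), 932 several and 9160 none. Each gene took its brightest probe set with 1 symbol, chosen by its mean over all arrays. Limma 3.58.1 (R 4.3.3) fitted the 5 groups together, and p-values were adjusted by Benjamini-Hochberg over 18193 genes. The fit was tested on simulated data. Correlations used 100000 permutations in scipy 1.17.1. The genes and lists were chosen with earlier results of these data known, and from each list the text names up to 2 genes past the test with the largest rise and up to 2 with the largest fall. A count of 5 or fewer is named in full where useful, as for Fads3. The labels do not say that each array is a separate animal, so p-values measure the spread between arrays, whose number limits the precision. Per the study, the end-stage lines came from the p53R172HCKO tumors, so arrays of these groups share animals, and the fit took them as independent. Alternatives covered the probe set, dim genes, normalization, weights, moderation, threshold, controls, chromosome medians, the methods' t-test (unpaired, two-tailed) and each array left out. Those without arrays 38, 45 and 58 or 36, 41 and 50, the bright genes and the neighbouring genes were chosen after seeing the data.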

Additional observations from a re-analysis of the deposited data

How the results depend on the processing

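No paired analysis was possible because the labels do not say which line came from which tumor, although the study's methods state that tumors and lines are paired. Of 530 member changes refitted under other settings, 485 kept their direction and side of the threshold, as did 949 of 1000 with 1 array left out. In gliomas against cortex, 3 members passed, but 6 with array weights (2 higher, 4 lower), 5 without arrays 38, 45 and 58, and 2 to 5 with 1 array left out (5 without array 50). With array weights 30.9% of all genes were called higher and 33.5% lower. The shares without arrays 38, 45 and 58 were 24.7% and 26.3%. Fads1 did not pass in gliomas against cortex as the mean of its probe sets, at -0.13 (adjusted p = 0.641), or with the Cre-positive cortices alone (adjusted p = 0.0997). In lines against cortex, 7 members passed, but 1 after cyclic loess, 4 with the Cre-positive cortices alone and 5 to 8 with 1 array left out. The share of all genes called higher was 25.5%, 23.4% after cyclic loess and 20.9% with the Cre-positive cortices alone. In lines against p53R172HCKO gliomas 6 to 9 passed with 1 array left out (9 without array 68), and 5 in the adjusted methods' t-test, where Scd1 was lost (adjusted p = 0.05003). That t-test called 5.11% of all genes higher. Between genotypes 0 passed, and 1 in the unadjusted methods' t-test. In that comparison and between early and end-stage lines 0 to 0 passed with 1 array left out. Of the correlations, 0 passed, and 1 within p53nullCKO gliomas (Elovl6 with the neuron score, r = -0.87, adjusted p = 0.00858 by permutation).

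Over all genes, 6 differed between genotypes, and 33 at an adjusted p under 0.1, 1619 in the unadjusted methods' t-test, 3 after cyclic loess, 14 with array weights, 13 after chromosome medians, 0 with the compared groups alone, 0 in the adjusted methods' t-test, 0 without arrays 38, 45 and 58, and 0 to 71 with 1 array left out. With 1 array left out, the counts ran from 7623 to 8938 in gliomas against cortex, 2049 to 2735 in lines against p53R172HCKO gliomas, 8325 to 9063 in lines against cortex and 0 to 0 in early lines. The unadjusted methods' t-test gave 4676 in lines against p53R172HCKO gliomas and 612 in early lines, where array weights gave 1. In lines against p53R172HCKO gliomas the calls higher were 53% of all calls, 40.9% after cyclic loess and 42.2% after chromosome medians.

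Direction turned in members that did not pass, except for Acss2 and Fads1 on a dim probe set each. After cyclic loess, gliomas against cortex gave Acly -0.16, Fasn -0.25 and Elovl6 -0.20, genotypes Acss2 -0.0405, and lines against cortex Scd1 -0.35 and Scd2 -0.36. Fasn in gliomas was -0.0015 with array weights and -0.0515 without arrays 36, 41 and 50, a setting that gave Srebf1 0.0343 between genotypes. Scd2 between genotypes was 0.0434 after chromosome medians, and Acaca in early lines 0.0344 as the mean of its probe sets. Of single probe sets in gliomas against cortex, Acss2 1446542_at gave 0.0533, Acly 1439445_x_at -0.0271 and 1446315_at -0.052, Elovl6 1417403_at -0.0251, Fads1 1440444_at 0.35 and Fads2 1449325_at -0.0736. Between genotypes Acss2 1446542_at gave -0.0034 and Scd1 1415965_at 0.17, in lines against cortex Scd2 1415824_at gave -0.10, and in early lines Acly 1438389_x_at gave 0.0242 and Acaca 1427595_at 0.28. With 1 array left out, the range crossed 0 for Fasn in gliomas (-0.0192 to 0.0642), Acss2 (-0.0561 to 0.10) and Scd2 (-0.12 to 0.069) between genotypes, Scd1 (-0.0675 to 0.20) and Scd2 (-0.011 to 0.13) in lines against cortex, and Acaca (-0.67 to 0.24), Fasn (-0.39 to 0.0903) and Srebf1 (-0.11 to 0.48) in early lines. The cause was not tested.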
